A study of Mus musculus with 12 samples.

Results

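The suppressors of cytokine signalling, known as the SOCS family, comprise Cish and Socs1 to Socs7, and their transcripts were examined in mouse CD8+ T cells with and without inhibition of the histone methyltransferase EZH2. The 8 genes were taken by symbol from 24421 listed genes, and all 8 passed the filter on low counts, which left 11727 genes. Both groups were CD8+ T cells of the spleen from C57BL/6 mice, an inbred laboratory strain. One group received DMSO, the solvent (n = 6 libraries), and the other, called EZH2i here, received an inhibitor of EZH2 (n = 6 libraries). The sources used here do not name the compound, its dose, the length of the treatment or the age of the mice. Nor do they state that each library came from its own mouse or culture, and the p-values therefore speak only of the variation among these libraries, part of which may be technical.

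SOCS proteins are feedback brakes on cytokine receptors. A cytokine activates Janus kinases on its receptor, these phosphorylate STAT transcription factors, and the STATs switch on SOCS genes among their targets. Each SOCS protein binds phosphorylated receptors or kinases through an SH2 domain and recruits a ubiquitin ligase through its SOCS box; Socs1 and Socs3 also block the kinases directly. In CD8+ T cells Socs1 restrains signals of interferon gamma and of interleukins of the common gamma chain, Socs3 restrains signals through gp130 and the interleukin 12 receptor, and Cish, a target of STAT5, restrains the T cell receptor pathway at phospholipase C gamma.

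Sequences near the transcription start were in the RefSeq table (build GRCm38.p6, 250 bases before to 50 after a start) for 4 of the 8 genes, namely Cish, Socs1, Socs3 and Socs4. They were searched for the core letters of a STAT binding site, TTCNNNGAA, which reads the same on both strands. Of 32851 windows of this length, 8.3% held at least 1 match and 0.457% at least 2. Cish held 2 matches side by side, the first beginning at its RefSeq start, Socs3 held 1 match 154 bases before its RefSeq start, and the windows of Socs1 and Socs4 held none. The outermost start in the GENCODE M21 annotation lies farther upstream, by 633 bases for Cish and 681 bases for Socs3. The Cish stretch is thus also within a UTR exon of a GENCODE transcript, and the Socs3 stretch within an intron of a non-coding GENCODE transcript of the gene. For Socs1 both annotations give the same start. The stretches with the matches are shown because the letters match the factors that act upstream of these genes; capitals mark the matches.
Cish, chr9:107296659-107296678, + strand: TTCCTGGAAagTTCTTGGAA
Socs3, chr11:117969501-117969530, - strand: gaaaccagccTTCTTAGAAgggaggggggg
These matches describe letters and were not tested for binding. The Socs1 window held 2 overlapping matches to GAAANNGAAA, the letters of an element bound by interferon regulatory factors, searched on both strands after the sequence had been seen and present in 3.44% of all windows. The 250 bases before the Socs1 start are shown, since Socs1 had the largest log2 fold change of the family, with these matches in capitals.
Socs1, chr16:10785537-10785786, - strand: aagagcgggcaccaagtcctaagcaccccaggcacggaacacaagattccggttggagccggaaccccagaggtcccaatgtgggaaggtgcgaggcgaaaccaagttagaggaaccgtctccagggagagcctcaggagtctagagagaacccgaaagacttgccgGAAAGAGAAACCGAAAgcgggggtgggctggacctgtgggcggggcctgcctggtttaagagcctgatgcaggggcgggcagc
CpG dinucleotides, of which the median window held 7, numbered 11 for Cish, 18 for Socs1, 31 for Socs3 and 34 for Socs4.

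The libraries held 17215483 to 31206228 counts, and the members were covered by 114 (Socs5) to 7305 (Cish) counts per library. Levels are given as CPM (counts scaled to the TMM-adjusted library size) and differences as log2 fold changes of EZH2i over DMSO. Adjusted p-values come from the quasi-likelihood test of edgeR, corrected over all tested genes by the method of Benjamini and Hochberg. In that test 2266 genes (19.3%) were called at an adjusted p under 0.05, 1557 (13.3%) higher and 709 (6.05%) lower; calls were 83.8% higher with upper-quartile scaling against 68.7% with TMM. The libraries numbered 6 stood apart from the others in both groups, with DMSO library 6 at 64.1 and EZH2i library 6 at 23.3 on the first principal component, against 9.58 to 20.1 and -35.7 to -28.3 for the other libraries. Defining markers of CD8+ T cells were abundant, with a mean of 1091 CPM of Cd8a in DMSO and 885 CPM in EZH2i, and Cd4 was at most 0.345 CPM; the 3 markers of CD4+ T cells summed to 2.96 to 8.85 CPM in DMSO and 6.17 to 9.56 CPM in EZH2i, mostly Foxp3. The summed markers ranged from 3001 to 4080 CPM in DMSO and from 2216 to 3346 CPM in EZH2i for 5 genes of CD8+ T cells (2 called, Cd8a and Cd3g, both lower), from 19.9 to 25.8 and from 15.3 to 23.6 CPM for 6 genes of B cells (none of the 2 tested was called), from 4.29 to 10.8 and from 6.44 to 18.6 CPM for 7 genes of myeloid cells (1 called, Itgam, higher), and from 375 to 498 and from 393 to 679 CPM for 5 genes of NK cells, mostly Nkg7, which CD8+ T cells also express (2 called, Klrb1c and Kit, both higher). Of 8 erythroid markers, 6 were at 0 in all libraries, and the summed markers of dendritic cells and of granulocytes stayed under 1 CPM. The part of these differences in the results below was not tested. Ezh2, the inhibited enzyme, stood at 278 ± 29.4 and 234 ± 26.6 CPM (mean ± SD, n = 6 each; adjusted p = 0.0833, and 0.000757 with libraries paired by number).

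The comparison addresses whether inhibiting EZH2 goes with a different level of these inhibitors. With EZH2i, Socs1, Socs5 and Socs3 were called higher, by 95.5%, 60.4% and 27.7% in mean CPM, and none of the 8 members was called lower. Cish differed by -9.34% in mean CPM and was not called. The 3 of 8 called higher stand beside 13.3% of all tested genes called higher. The median log2 fold change of the 8 members was 0.18, against -0.01 over all tested genes. Blocking on the replicate number pairs libraries that carry the same number, a pairing that the labels do not state. With this block 5 members were called higher, Socs2 and Socs7 in addition, and none lower, beside 49% of all tested genes called (24.7% higher and 24.3% lower). Without both libraries numbered 6 the same 3 members were called, beside 44.1% of all tested genes (24.1% higher and 20% lower). With all 12 libraries the ranges of the groups overlapped for each of the 8 members; they did not overlap for 10.2% of all tested genes, 7.5% with EZH2i above and 2.74% with EZH2i below. Without both libraries numbered 6 they did not overlap for 2 members, Socs3 and Socs5, beside 28.8% of all tested genes. The cells were measured in bulk, so more cells that carry a transcript and more of it per cell cannot be told apart.

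**Figure D1:**
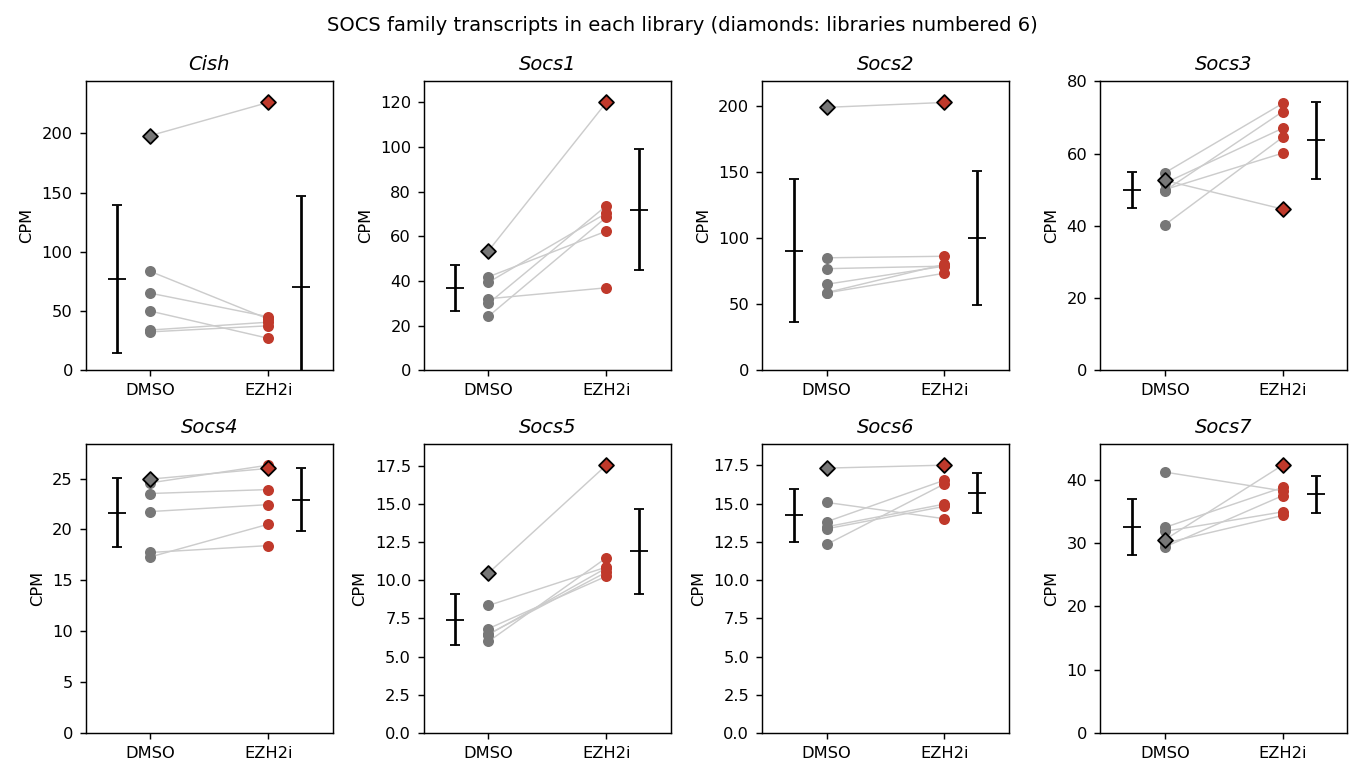
Level of each SOCS family transcript in CPM (y axis, from 0) in the 6 DMSO (grey) and 6 EZH2i (red) libraries; grey lines join libraries of the same number, diamonds are the libraries numbered 6, and black bars at the side are mean ± SD (the lower bar of Cish in EZH2i is cut at 0). Socs1, Socs2, Socs4 and Socs5 were higher in EZH2i in 6 of 6 same-numbered libraries. Cish and Socs2 were far higher in the libraries numbered 6 than in the others in both groups.

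Socs1, the inhibitor that binds Janus kinases directly, had the largest difference. Its lowest, median and highest levels were 24.2, 35.7 and 53.5 CPM in DMSO and 36.9, 69.5 and 120.0 CPM in EZH2i. In 5 of the 6 EZH2i libraries Socs1 lay above every DMSO library; the exception was EZH2i library 2, at 36.9 CPM. The mean rose from 36.8 ± 10.4 to 72.0 ± 27.0 CPM, and the log2 fold change was 0.97 (SE 0.25, 95% interval 0.44 to 1.50, adjusted p = 0.0143). Between same-numbered libraries the log2 ratio was positive in 6 of 6 and ran from 0.21 (number 2) to 1.50 (number 4). The share of all tested genes with 6 of 6 was not counted, here and for the members below. Both libraries numbered 6 were the highest of their group, and without them the log2 fold change was 0.91 (adjusted p = 0.000274). Build GRCm38 places Socs1 on chromosome 16, bases 10782240 to 10785536, where it overlaps no other annotated gene.

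Socs5, which is best known for acting on the epidermal growth factor receptor and on interleukin 4 signalling, was among the least abundant members. It measured 5.99, 6.66 and 10.5 CPM (lowest, median, highest) in DMSO and 10.3, 10.8 and 17.6 CPM in EZH2i. The groups overlapped only through DMSO library 6, at 10.5 CPM, which lay above EZH2i library 1, at 10.3 CPM. The log2 fold change was 0.69 (SE 0.17, 95% interval 0.32 to 1.05, adjusted p = 0.0124), and EZH2i was higher in 6 of 6 same-numbered libraries, with log2 ratios of 0.38 to 0.94. Without both libraries numbered 6 the DMSO libraries ran from 5.99 to 8.35 CPM and the EZH2i libraries from 10.3 to 11.5 CPM, with no overlap, which held in the same direction for 17.1% of all tested genes. Its log2 fold change was then 0.67 (adjusted p = 3.71e-05). Socs5 occupies bases 87107679 to 87137839 of chromosome 17.

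Socs3, the inhibitor of gp130 receptors such as that of interleukin 6, rose less and only just passed the threshold. The lowest, median and highest levels were 40.3, 50.9 and 54.7 CPM in DMSO and 44.6, 65.8 and 73.9 CPM in EZH2i. All EZH2i libraries but number 6 lay above every DMSO library, and EZH2i library 6, at 44.6 CPM, lay within the DMSO range. The log2 fold change was 0.35 (SE 0.12, 95% interval 0.10 to 0.60, adjusted p = 0.0485). Within number 6 the log2 ratio was -0.24, against 0.27 to 0.68 within the other numbers. Without EZH2i library 6 the log2 fold change was 0.44 (adjusted p = 0.00159), and without both libraries numbered 6 it was 0.46 (adjusted p = 0.000181), with no overlap between the groups. Leaving out any 1 of the other 11 libraries gave an adjusted p between 0.0512 and 0.114, so the call was lost without any 1 of them. Socs3 occupies bases 117966079 to 117970047 of chromosome 11.

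Cish and Socs2, the members most closely tied to STAT5, varied more between libraries than between groups. Cish measured 32.4, 57.5 and 198 CPM (lowest, median, highest) in DMSO and 27.0, 41.9 and 226 CPM in EZH2i. The highest value of each group was its library 6, at 3.74 times the mean of the other 5 libraries in DMSO and 5.84 times in EZH2i. The log2 fold change of Cish was -0.14 with a 95% interval of -1.38 to 1.11 (adjusted p = 0.901), and its direction depended on single libraries: it was 0.41 without DMSO library 6, 0.03 without EZH2i library 2, and -0.99 without EZH2i library 6. Cish was not called without both libraries numbered 6 (-0.44, adjusted p = 0.0959) or with the replicate block (-0.28, adjusted p = 0.108). EZH2i was lower within numbers 1, 2 and 3 (log2 ratios -0.53, -0.89 and -0.95) and higher within numbers 4, 5 and 6 (0.21, 0.26 and 0.19). Cish occupies bases 107296026 to 107302784 of chromosome 9 and overlaps 2 annotated genes on the opposite strand, Gm17040 and Gm17041. The sources used here do not state the strand setting of the counting, so reads of these genes cannot be told apart from those of Cish.

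Socs2, the inhibitor of growth hormone signalling, had the highest mean CPM of the members in both groups, a measure not scaled to length. Socs2 ranked 4 in both groups per kilobase of merged exons and 1 per kilobase of the longest principal transcript. It measured 58.6, 71.1 and 199 CPM in DMSO and 73.5, 79.6 and 203 CPM in EZH2i (lowest, median, highest). Library 6 was again the highest, at 2.89 times the mean of the other 5 in DMSO and 2.55 times in EZH2i. The log2 fold change was 0.15 with a 95% interval of -0.59 to 0.88 (adjusted p = 0.809), and -0.18 without EZH2i library 6. EZH2i was higher in 6 of 6 same-numbered libraries, by log2 ratios of 0.02 to 0.45. With the replicate block Socs2 was called higher at a log2 fold change of 0.19 (95% interval 0.05 to 0.32, adjusted p = 0.0220), and without both libraries numbered 6 it was 0.22 (adjusted p = 0.0624). Socs2 occupies bases 95385362 to 95417180 of chromosome 10.

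Socs4, Socs6 and Socs7, members studied mainly in growth factor and insulin signalling, were not called with all 12 libraries. Socs4 measured 17.3 to 24.9 CPM in DMSO and 18.4 to 26.3 CPM in EZH2i, with a log2 fold change of 0.08 (95% interval -0.18 to 0.35, adjusted p = 0.685). It was higher in EZH2i in 6 of 6 same-numbered libraries, by log2 ratios of at most 0.25, and was not called with the replicate block (adjusted p = 0.272). Socs6, which binds the receptor Kit and the kinase Lck, measured 12.3 to 17.3 CPM in DMSO and 14.0 to 17.5 CPM in EZH2i, with a log2 fold change of 0.14 (95% interval -0.06 to 0.35, adjusted p = 0.335); it overlaps annotated pseudogenes, so its counts are less certain. Socs7 measured 29.4 to 41.3 CPM in DMSO and 34.4 to 42.3 CPM in EZH2i, with a log2 fold change of 0.21 (95% interval 0.01 to 0.41, adjusted p = 0.132). The highest DMSO value of Socs7 was that of library 4; without it the log2 fold change was 0.29 (adjusted p = 0.0132), and with the replicate block it was 0.21 (adjusted p = 0.0203). The upper ends of these 3 intervals lay below the log2 fold change of Socs1. Socs7 occupies bases 97362551 to 97398542 of chromosome 11, and Socs4 bases 47276931 to 47296102 of chromosome 14.

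**Figure D2:**
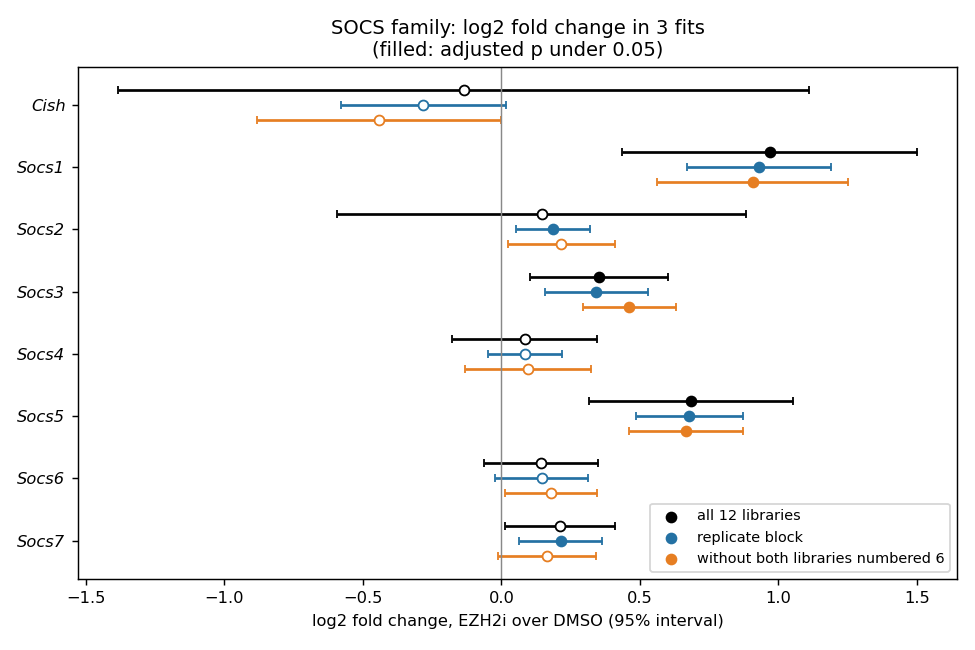
Log2 fold change of each member, EZH2i over DMSO (x axis), with its 95% interval (bars), from all 12 libraries (black), with the replicate block (blue) and without both libraries numbered 6 (orange); filled points have an adjusted p under 0.05. Socs1, Socs3 and Socs5 are filled in all 3 fits, Socs2 and Socs7 only with the block, and the interval of Cish from all 12 libraries spans -1.38 to 1.11.

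The libraries numbered 6 carried the highest level of their group in both groups for 5 of the 8 members, Cish, Socs1, Socs2, Socs5 and Socs6, beside 28.5% of all tested genes. Among the other target genes of STAT5 that were listed, 14 of 16 tested were highest in library 6 in both groups, beside the same 28.5%. Bcl6 and Il2rb were the exceptions. The other lists were not counted in this way, so whether this is particular to STAT5 targets was not tested. Socs3 went the other way in EZH2i, where library 6 was the lowest, at 44.6 CPM against 67.4 ± 5.51 CPM in the other 5. The labels do not say what the number stands for. The summed markers of CD8+ T cells were lowest in the libraries numbered 6 of both groups (3001 and 2216 CPM), and their part in these levels was not tested.

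**Figure D3:**
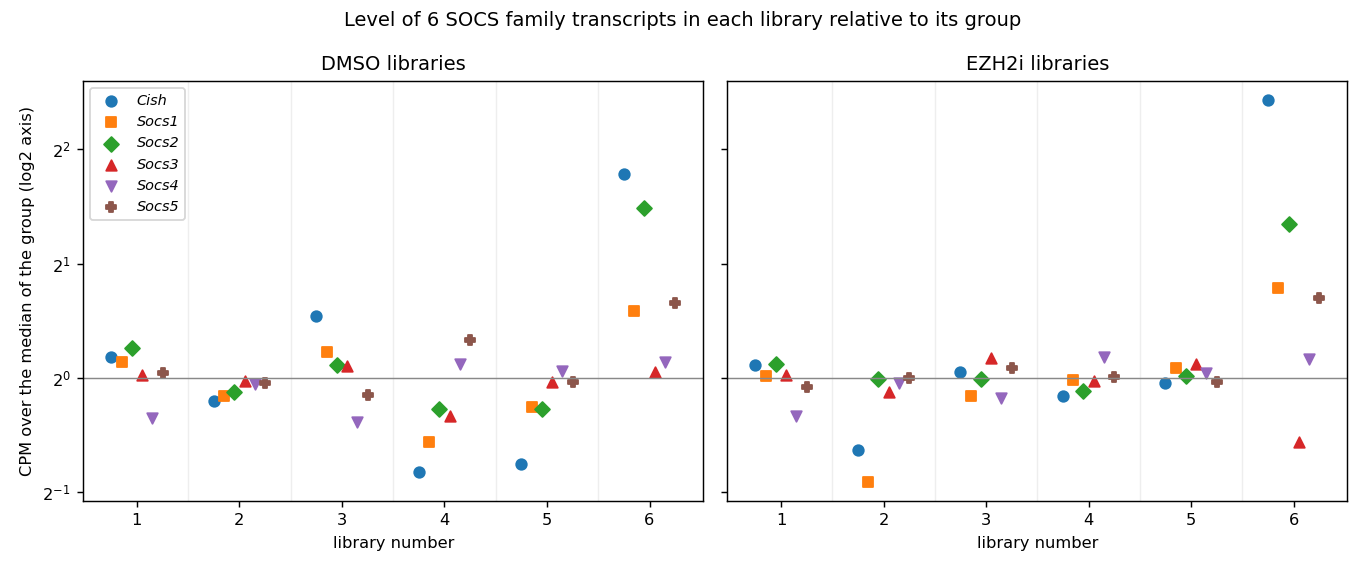
CPM of Cish and Socs1 to Socs5 in each library divided by the median of its group (y axis, log2 scale; x axis, library number; points are shifted sideways by gene), for DMSO (left) and EZH2i (right). Cish and Socs2 stand far above the other values in library 6 of both groups, while Socs3 is at its lowest in EZH2i library 6.

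Levels of the members were compared with each other per kilobase of merged exons in GENCODE M21. In DMSO, Socs3 (17.2 ± 1.74 CPM per kb), Socs1 (12.7 ± 3.58), Cish (12.02 ± 9.71) and Socs2 (9.52 ± 5.69) formed the upper group, and each overlapped the next in range. Socs7 (4.49 ± 0.605 CPM per kb) and Socs4 (3.15 ± 0.492) followed without overlap, and Socs6 (1.25 ± 0.155) and Socs5 (1.16 ± 0.265) were lowest and overlapped. In EZH2i, Socs1 (24.8 ± 9.29 CPM per kb) came before Socs3 (22.02 ± 3.64), with overlapping ranges, and Socs5 (1.86 ± 0.435) came before Socs6 (1.38 ± 0.115), without overlap for this length. Socs1 made up 20.7% ± 1.92 of the summed family level per kb in DMSO and 30.5% ± 4.28 in EZH2i. The order within the upper group and that of Socs5 and Socs6 depend on the length used, since merged exons and principal transcript differ in length, as for Socs2 (9531 and 2222 bases) and Cish (6419 and 2850 bases). Per kilobase of the longest principal transcript, a length chosen after seeing the data, Socs2 (40.8 ± 24.4 CPM per kb) and Cish (27.1 ± 21.9) led in DMSO. In EZH2i, Socs6 (2.60 ± 0.216 CPM per kb) and Socs5 (2.56 ± 0.600) then came in the reverse order, with overlapping ranges. By this length Socs1 made up 11.8% ± 1.70 of the family in DMSO and 18.8% ± 3.21 in EZH2i.

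The genes whose log2 CPM followed each called member most closely over the 12 libraries were named as a description, with Pearson's r over libraries that share group and library number. For Socs1 these were Dusp14 (r = 0.970), Dusp3 (0.950) and the serpin Serpina3g (0.950), Dusp14 and Dusp3 being dual-specificity phosphatases. Without number 6 their r with Socs1 was 0.953, 0.919 and 0.917. For Socs3 they were the haem transporter Slc48a1 (r = 0.942), the clock factor Npas2 (0.915) and the adaptor Nck2 (0.899), and for Socs5 the golgin Golga4 (0.980), the sorting nexin Snx18 (0.975) and AI314180 (0.975). All 9 genes were called higher with EZH2i (log2 fold changes of 0.28 for Nck2 to 1.27 for Dusp3), a direction that choosing them by likeness to members that rose largely fixes. With 1 of the 12 libraries left out, the call was lost in 11 fits for AI314180, 9 for Npas2, 6 for Snx18, 5 for Golga4 and 2 for Nck2, and in none for the other 4.

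With all 12 libraries, 2 STAT factors and 6 receptor chains upstream of the SOCS genes rose, and 3 receptor chains fell. No Janus kinase passed the threshold in that fit. Here and below, rose and fell mean called higher and called lower. The counts of this list and those that follow stand beside 13.3% of all tested genes called higher and 6.05% lower, 24.7% and 24.3% with the block, and 24.1% and 20% without both libraries numbered 6. Of 7 STAT factors 2 rose and none fell, among them Stat3, the main factor downstream of gp130, from 194 ± 14.8 to 245 ± 25.8 CPM (adjusted p = 0.0108). The median log2 fold change of the STAT list was 0.16, and 4 rose and 1 fell with the replicate block. Without both libraries numbered 6, 4 STAT factors rose and none fell. None of the 4 Janus kinases was called by edgeR or DESeq2, 1 had an unadjusted p under 0.05, and 3 rose with the block; Jak1 had the smallest p, at 934 ± 152 and 1179 ± 233 CPM (adjusted p = 0.147, and 0.000143 with the block).

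Of 39 receptor chains that signal through Janus kinases, 25 were tested, 6 rose and 3 fell, with a median log2 fold change of 0.08. Il12rb2, the interleukin 12 receptor chain that Socs3 binds, rose from 206 ± 14.3 to 359 ± 18.2 CPM (adjusted p = 3.14e-06), and Ifngr2, a chain of the interferon gamma receptor, from 18.5 ± 2.54 to 31.7 ± 7.28 CPM (adjusted p = 0.00429). Csf2ra (0.52) and Il15ra (0.43) also rose on the log2 scale. Il10ra (0.42) and Il4ra (0.27) were called higher as well and were named after their values were seen. The 3 that fell, named after their values were seen, were Il6ra, the binding chain for interleukin 6 (-0.41), Il27ra (-0.27) and Il10rb (-0.19). Il10ra and Il10rb, chains of the interleukin 10 receptor, thus went in opposite directions. With the block 10 receptor chains rose and 6 fell, without both libraries of number 6 there were 10 that rose and 5 that fell, and with upper-quartile scaling 7 rose and 1 fell. Of 25 cytokines that bind these receptors 4 were tested, and none was called by edgeR or DESeq2 or had an unadjusted p under 0.05. With the block 1 cytokine was called higher, Lif (log2 fold change 0.44), named after its value was seen; Csf2, with the smallest p, stood at 0.820 ± 0.332 and 1.25 ± 0.431 CPM (adjusted p = 0.182).

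Among the subunits of the ubiquitin ligase that the SOCS box recruits, 1 fell and none rose. All 9 tested partners, the elongins, cullins, RING proteins and their helpers, had log2 fold changes below 0 with TMM scaling (median -0.19, lowest -0.27), and the 1 called was Tceb2 (elongin B), from 105 ± 8.61 to 87.4 ± 8.83 CPM (adjusted p = 0.0294). With the block 6 of 9 fell and without both libraries numbered 6 it was 5, while DESeq2 called 2 lower and upper-quartile scaling none, with 8 of the 9 below 0. Tceb2 itself lost its call in 7 of the 12 fits with 1 library left out. Of 13 tested proteins with a SOCS box outside the family, 1 rose and 1 fell: Spsb1 (log2 fold change 2.09), with means of 0.245 and 0.995 CPM, and Asb3 (-0.29). With 1 library left out Spsb1 lost its call in 6 of 12 fits and Asb3 in 4, and Asb3 also lost it with upper-quartile scaling. With the block 4 rose and 3 fell, and without both libraries numbered 6 it was 1 and 3.

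Of 13 tested inhibitors of Janus kinase signalling outside the family, none was called higher and 2 fell: the phosphatase Ptpn6 (SHP-1), from 372 ± 63.4 to 232 ± 24.3 CPM (adjusted p = 0.000943), and the adaptor Sh2b3 (LNK), from 46.6 ± 1.30 to 41.2 ± 2.07 CPM (adjusted p = 0.0439). With the block 1 rose and 3 fell, without both libraries numbered 6 it was 3 and 4, and the list's median log2 fold change was 0.02. Ptpn6 was called lower under all 19 alternatives run, whereas Sh2b3 lost its call in 9 of 12 fits with 1 library left out, with upper-quartile scaling and with no filter.

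Genes known as targets of STAT factors or of interferon were listed separately. Of 16 tested STAT5 targets outside the family 1 rose, the pore-forming protein Prf1 (log2 fold change 0.54, adjusted p = 0.0138), and none fell, with a median of 0.03; with the block 6 rose and 2 fell, together 8 of 16 beside 49% of all tested genes, and without both libraries numbered 6 it was 3 and 1. Of 19 tested targets of interferon signalling 4 rose and none fell, with a median of 0.26, among them Ciita (2.02), Irf8 (0.76) and Gbp7 (0.39); with the block 9 rose and 3 fell, and without both libraries numbered 6 it was 8 and 2. Of 11 tested STAT3 targets 5 rose and none fell, with a median of 0.27, among them Maf (1.94), Fosl2 (1.35), Prdm1 (0.99) and Bcl3 (0.56); with the block 7 rose and 2 fell, and without both libraries numbered 6 it was 7 and 1. Bcl3 lost its call in 7 of 12 fits with 1 library left out, and Maf, Fosl2 and Prdm1 in none. The lists share genes, among them Pim1, Il4ra, Il2ra, Il2rb, Il10, Il21 and Osm, and they hold genes that answer to many other factors.

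Among 9 tested signalling proteins that SOCS proteins are known to bind, 5 rose and 2 fell, with a median log2 fold change of 0.45. With the block 6 rose and 2 fell, and without both libraries numbered 6 it was 7 and 2. Kit, the stem cell factor receptor bound by Socs6, went from 3.84 ± 0.750 CPM up to 31.4 ± 10.7 CPM, a difference of 3.04 on the log2 scale (adjusted p = 1.88e-06). Kit also stands in the NK cell list, in which Klrb1c went from 0.852 to 5.10 CPM in the mean while Ncr1 was at most 0.119 CPM and Klra8 at 0; the part of NK cells was not tested. The insulin-like growth factor receptor Igf1r (1.18), the Toll-like receptor adaptor Tirap (0.79), which Socs1 targets, and the insulin receptor substrate Irs2 (0.77), which Socs1 and Socs3 target, also rose on the log2 scale. The 2 that fell, named after their values were seen, were the T cell kinase Lck (-0.35) and Vav1 (-0.18).

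**Figure D4:**
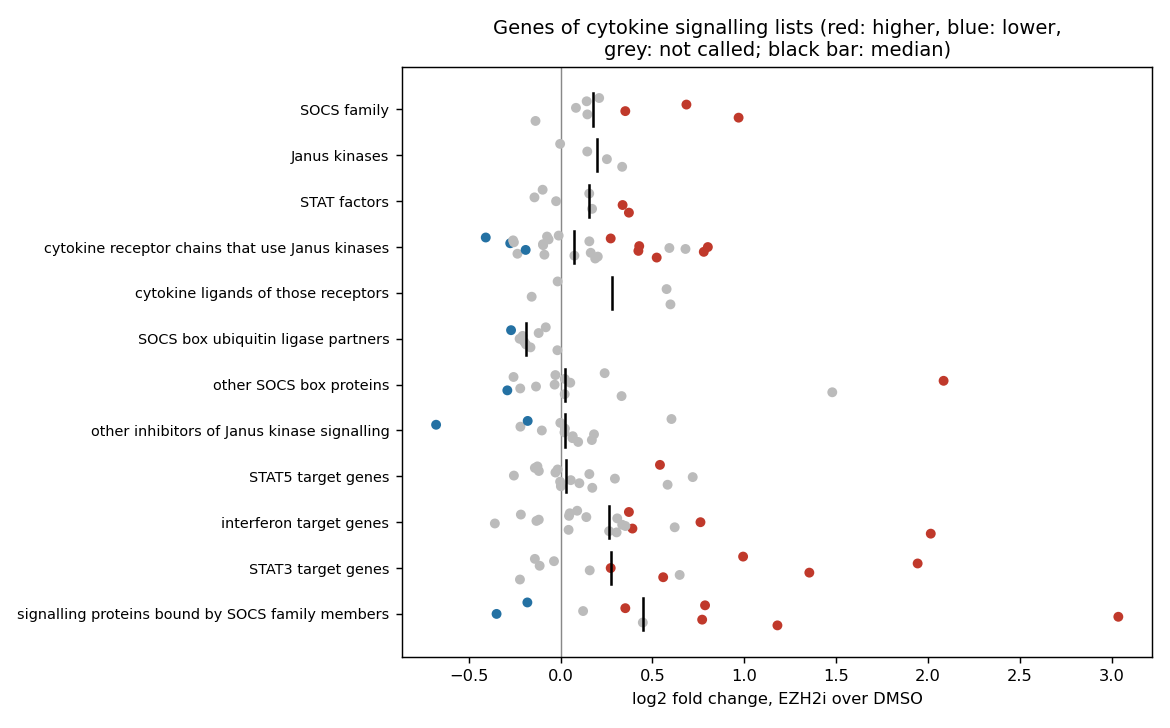
Log2 fold change, EZH2i over DMSO (x axis), of each tested gene (point) of the SOCS family and of 11 lists of cytokine signalling genes (rows), with the median of each list as a black bar; red points were called higher, blue lower and grey not called. The SOCS family has 3 red points and no blue, and all 9 ubiquitin ligase partners lie below 0 with TMM scaling (8 with upper-quartile scaling).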

How the data were processed

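Raw counts per gene symbol, 1 table per library, were deposited by the authors. Libraries were stranded, from polyadenylated RNA, with single-end reads, per the labels' protocols. The submitters' processing notes name TopHat2 2.1.1, featureCounts, Trimmomatic 0.38, SAMtools 1.9 and FastQC 0.11.7, and build GRCm38. The annotation, the strand setting and the counting of multi-mapping reads were not given in the sources used here.

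Libraries were grouped by the treatment in the labels. In R 4.3.3, genes were filtered with filterByExpr of edgeR 4.0.16, scaled with TMM and tested on the group alone (quasi-likelihood, two-sided), with Benjamini-Hochberg adjustment over 11727 genes; the fit was tested on simulated data. The SE is the size of the log2 fold change divided by the square root of F. Log2 CPM used a prior count of 2. Positions and exon lengths are from GENCODE M21, and promoter sequences from RefSeq. DESeq2 1.42.0 served as an alternative, beside other scalings, filters and left-out libraries; the gene set was kept when libraries were left out.

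The members and lists were chosen with earlier results of these data known. Named were the 8 members, of each list up to 4 called genes with the largest change (or the smallest p where none was called), the 3 genes most like each called member, and Ezh2; 1 gene that this rule names is not reported here. The groups share the replicate numbers 1 to 6. Once group means were subtracted, libraries of 1 number correlated with r of 0.213 to 0.847, all over 0.1. The numbers were taken to pair libraries on this basis, from the data and not the labels. Without number 6, r ran from 0.0371 to 0.341. Only for numbers 2, 4 and 6 was the same number the best match in both directions. The basis for pairing is therefore weak, and results with the replicate block depend on it. Replicates differed by more than sampling noise (the lowest chi-square over its degrees of freedom was 4.94).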

Additional observations from a re-analysis of the deposited data

Results flagged for a closer look

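In 7 of the 16 sets of 6 libraries (8 members in each group), 1 library lay far from the others. Its gap to the nearest neighbour took more than the 95% critical share of the range. For a single set of independent, normally distributed values this happens about 1 time in 20. The 16 sets share the same 12 libraries, so their count cannot be set against that rate. Of these 7 libraries 5 were numbered 6. Cish stood at 198 CPM in DMSO library 6, with the next library at 83.4, and at 226 CPM in EZH2i library 6, with the next at 45.2. Socs2 stood at 199 CPM in DMSO library 6, with the next at 85.2, and at 203 CPM in EZH2i library 6, with the next at 86.4. Socs5 stood at 17.6 CPM in EZH2i library 6, with the next at 11.5. The other 2 were both DMSO library 4, low in Socs3 at 40.3 CPM, with the next at 49.7, and high in Socs7 at 41.3 CPM, with the next at 32.5.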

How the results depend on the processing

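Socs1 and Socs5 stayed called higher under all 19 alternatives run, with log2 fold changes of 0.76 to 1.11 and 0.54 to 0.81. Socs3 kept its direction and missed the threshold with DESeq2 size factors in edgeR (0.34, adjusted p = 0.0512) and without a filter (0.34, adjusted p = 0.0531); with 1 library left out it ran from 0.30 to 0.44 and was called only without EZH2i library 6. With the replicate block Socs2 (0.19) and Socs7 (0.21) were called, 5 members in all, and no other member's call changed. With 1 library left out 2 to 3 members were called, Cish ran from -0.99 to 0.41 (0.41 without DMSO library 6 and 0.03 without EZH2i library 2 were reversed), Socs2 from -0.18 (without EZH2i library 6, reversed) to 0.54, and Socs7 from 0.17 to 0.29. The count of all called genes was 2266, and 5741 with the block, 5174 without both libraries numbered 6 and 1725 to 4018 with 1 library left out (4018 without EZH2i library 6). For distinct genes of the 11 lists the counts were 31, 74, 66 and 22 to 51 (51 without EZH2i library 6). The cause of these shifts was not tested. Of 663 repeats for single named genes outside the family 581 kept their side of the threshold, 75 lost it and 7 gained it, and none changed direction. Members had at least 114 counts per library, a counting error of at most 9.37%. For each member the error at its lowest count was smaller than its own spread over the 6 libraries of either group. For Socs6 it was 6.27% against a spread of 8.31% in EZH2i, and for Socs7 4.42% against 7.66%. The smaller spread of Socs5 among EZH2i libraries 1 to 5 (10.8 ± 0.451 CPM) was not compared with it.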

Other observations

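Among DMSO libraries 1 to 5, Cish, Socs1 and Socs3 ranked the libraries alike, with library 3 highest (83.4, 41.9 and 54.7 CPM), then libraries 1, 2 and 5, and library 4 lowest (32.4, 24.2 and 40.3 CPM). Socs4 ranked the same libraries in exactly the opposite order, from 24.6 CPM in library 4 to 17.3 CPM in library 3. Among EZH2i libraries 1 to 5, library 2 was lowest for Cish (27.0 CPM), Socs1 (36.9 CPM) and Socs3 (60.1 CPM), but not for Socs4, for which library 1 was lowest (18.4 CPM). These rankings were noticed in the data and were not tested.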
